A study of Mus musculus with 13 samples.

Results

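Genes of 6 families of chromatin proteins were followed in 4T1 mouse mammary carcinoma cells treated with doxorubicin (DOX), interleukin-17A (IL-17A) or both. The members were all genes whose symbols begin with *Kmt2*, *Kmt5*, *Kdm1* to *Kdm8* or *Smarc*, and the numbered genes *Hdac*, *Chd1* to *Chd9* and *Brd1* to *Brd9*. There were 65 such genes among the 13222 listed (8 Kmt, 17 Kdm, 13 Smarc, 11 Hdac, 9 Chd and 7 Brd genes), and 63 of them were among the 12319 genes with enough reads to be tested. *Hdac9* and *Kdm8* were not tested. The symbol rule also took *Smarca5-ps*, a transcribed processed pseudogene of *Smarca5*, so reads may have been split between these copies and the values of both are uncertain.

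The cells were the 4T1-Thy1.1 line, a Thy1.1-carrying derivative of a BALB/c triple negative breast cancer model, so all groups share that transgene and a single parental line. Cultures in 12-well plates were left as controls (n = 3, replicates 1, 3 and 5), or received 200 ng/mL doxorubicin (DOX, n = 4, replicates 1 to 4), 25 ng/mL recombinant mouse IL-17A (IL-17A, n = 3, replicates 2, 3 and 5) or both (DOX+IL-17A, n = 3, replicates 2, 3 and 5) for 48 hours before RNA was isolated. The design asks how DOX alters expression, whether IL-17A does so on its own, and whether IL-17A changes the response to DOX. The study's methods speak in general of biological replicates but do not say whether these libraries came from separate experiments or wells of a plate, and if they were wells the p-values measure only technical spread.

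Chromatin is remodelled by enzymes that write, erase and read chemical marks on histones and by ATP-driven machines that move nucleosomes. Kmt genes are named after lysine methyltransferases and Kdm genes after lysine demethylases, while Hdac genes encode deacetylases that act mostly inside corepressor complexes. Smarc genes encode subunits of BAF (SWI/SNF) and related remodelers, Chd genes encode chromodomain helicases, and Brd genes encode bromodomain proteins that bind acetylated lysines. Doxorubicin intercalates into DNA, traps topoisomerase II and breaks both strands, and many of these enzymes are known to act at DNA breaks or in transcription. IL-17A is a proinflammatory cytokine that signals through receptors on epithelial and tumor cells.

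Of the 63 members tested, *Chd6*, *Kdm5b*, *Kdm7a*, *Kmt2c* and *Kmt2e* fell in each of the 3 comparisons that contrast cells with and without DOX, and *Hdac1* rose in each, while 4.42% of all genes tested fell in each and 4.25% rose in each. These comparisons share libraries. The upstream promoter sequence is shown for those of the 6 that were matched in the RefSeq promoter table (GRCm38.p6), because they moved together. *Hdac1* and *Kmt2e* were not matched. The 250 bases before the RefSeq start are those of *Kdm7a* (chr6:39206774-39207023, minus strand), *Kdm5b* (chr1:134559928-134560177, plus strand), *Kmt2c* (chr5:25498784-25499033, minus strand) and *Chd6* (chr2:161109087-161109336, minus strand), written 5′ to 3′ on the strand of the gene, with capitals marking the GC box GGGCGG or its complement CCGCCC.
Kdm7a: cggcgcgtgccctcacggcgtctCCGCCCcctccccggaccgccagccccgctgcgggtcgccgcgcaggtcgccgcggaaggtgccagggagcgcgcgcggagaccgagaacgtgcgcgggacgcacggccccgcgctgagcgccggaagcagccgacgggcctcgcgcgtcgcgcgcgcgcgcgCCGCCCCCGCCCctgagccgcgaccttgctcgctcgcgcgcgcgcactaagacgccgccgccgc
Kdm5b: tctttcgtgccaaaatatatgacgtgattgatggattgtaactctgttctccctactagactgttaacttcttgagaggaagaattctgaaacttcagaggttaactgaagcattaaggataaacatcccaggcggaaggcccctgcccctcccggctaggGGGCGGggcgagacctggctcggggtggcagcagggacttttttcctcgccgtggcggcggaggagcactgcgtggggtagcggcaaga
Kmt2c: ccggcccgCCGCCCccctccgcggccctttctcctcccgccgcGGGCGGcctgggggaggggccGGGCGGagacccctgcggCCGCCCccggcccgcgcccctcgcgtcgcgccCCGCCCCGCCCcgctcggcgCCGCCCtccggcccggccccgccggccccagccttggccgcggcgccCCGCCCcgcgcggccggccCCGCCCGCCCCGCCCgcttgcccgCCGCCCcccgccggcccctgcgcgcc
Chd6: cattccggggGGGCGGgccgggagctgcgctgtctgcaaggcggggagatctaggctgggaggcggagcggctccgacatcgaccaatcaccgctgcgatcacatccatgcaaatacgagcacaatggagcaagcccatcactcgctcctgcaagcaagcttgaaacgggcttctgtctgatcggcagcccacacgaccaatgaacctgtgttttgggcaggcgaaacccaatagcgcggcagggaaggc

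GC boxes, the sites known to be bound by Sp-family factors, were found on either strand in each of these promoters: 12 matches in *Kmt2c*, 3 in *Kdm7a*, and 1 each in *Kdm5b* and *Chd6*, counting matches that overlap. The 250 bases also held 56 CpG dinucleotides in *Kdm7a*, 48 in *Kmt2c*, 19 in *Chd6* and 13 in *Kdm5b*. Among 9424 tested genes with an entry, the first listed start of each was searched. The motif GGGCGG occurred in 60.3% of all and in 34 of 45 members (75.6%), and the median CpG count was 16 in all and 20 in members. Of the 10 matched members that fell with DOX, 8 held the motif. CCAAT, searched on both strands, occurred in 37.4% of all promoters and in 33.3% of members, and ACGTG, the core of the hypoxia response element, in 21.98% and 11.1%. Of the same 10 members that fell, 2 held CCAAT and 3 held ACGTG. Matches of different motifs may share bases, and a match is a match of letters only.

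Libraries held between 4445592 and 16930600 reads on listed genes, and values are normalized read counts (reads scaled by the authors' TMM library size). The smallest value taken as detected was 3 reads, worth from 0.183 to 0.613 normalized reads depending on the library. Reads come from the 3′ ends of transcripts, and gene positions are given in mm10 (GENCODE vM21). All 6 epithelial carcinoma markers were expressed in every library, with a summed level of 1425 to 1594 in control, 1243 to 1526 in IL-17A, 712 to 789 in DOX and 582 to 790 in DOX+IL-17A. *Epcam*, *Krt8*, *Krt18* and *Krt19* were lower in both DOX groups than in control, and *Cdh1* overlapped. *Krt14* went the other way, at 38.6 to 43.6 in control, 52.0 to 122 in DOX and 54.7 to 110 in DOX+IL-17A. Control replicate 1 stood apart on the second principal component (74.7, others from -42.9 to 23.4), and DOX replicate 1 carried 8 skeletal muscle markers at a sum of 244 (other libraries 9.35 to 43.1) and 3 red blood cell markers at 66.5 (others 0 to 14.4). Both are therefore left out in turn below. Of 5 leukocyte markers only *Ptprc* and *Cd68* were listed, at a sum of 10.5 to 19.4 in DOX and 1.52 to 6.33 in control, and the sum of 3 fibroblast markers was 13.7 to 50.8 in DOX and 15.6 to 82.4 in control. The part of these markers in the changes of the chromatin genes was not tested. In bulk RNA, fewer cells of a type and less RNA per cell cannot be told apart.

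With DOX, chromatin genes fell more often than they rose. In DOX against control, 11 of 63 members fell and 2 rose at an adjusted p under 0.05 (limma on log2(value + 1), Benjamini-Hochberg over all genes tested), while 22.1% of all genes tested passed (9.71% lower and 12.4% higher). The shares among members were 17.5% lower and 3.17% higher. With the additional demand of a change above 2-fold, 6 members fell and 0 rose, while 15.3% of all genes passed (6.18% lower and 9.15% higher). The median log2 fold change was -0.40 over members and 0.09 over all genes tested, and 49 of 63 members lay below 0. Scaling by library size alone moved the median of all genes to 0.24, the share of higher calls among all calls from 56.1% to 71.7%, and the median of members to -0.23, with 6 members lower and 3 higher; relative to all genes the members lay at -0.49 and -0.47 under these scalings. Leaving out DOX replicate 2 gave 5 lower and 1 higher, DOX replicate 3 gave 6 and 1, and control replicate 5 gave 7 and 1, while a fit with the replicate block gave 6 and 1. Without control replicate 1, 10 members fell and 3 rose. Without DOX replicate 1, 8 fell and 2 rose. With neither of these libraries 8 fell and 0 rose, as *Hdac1* (adjusted p = 0.0567) and *Brd2* (0.0578) no longer passed.

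**Figure D1:**
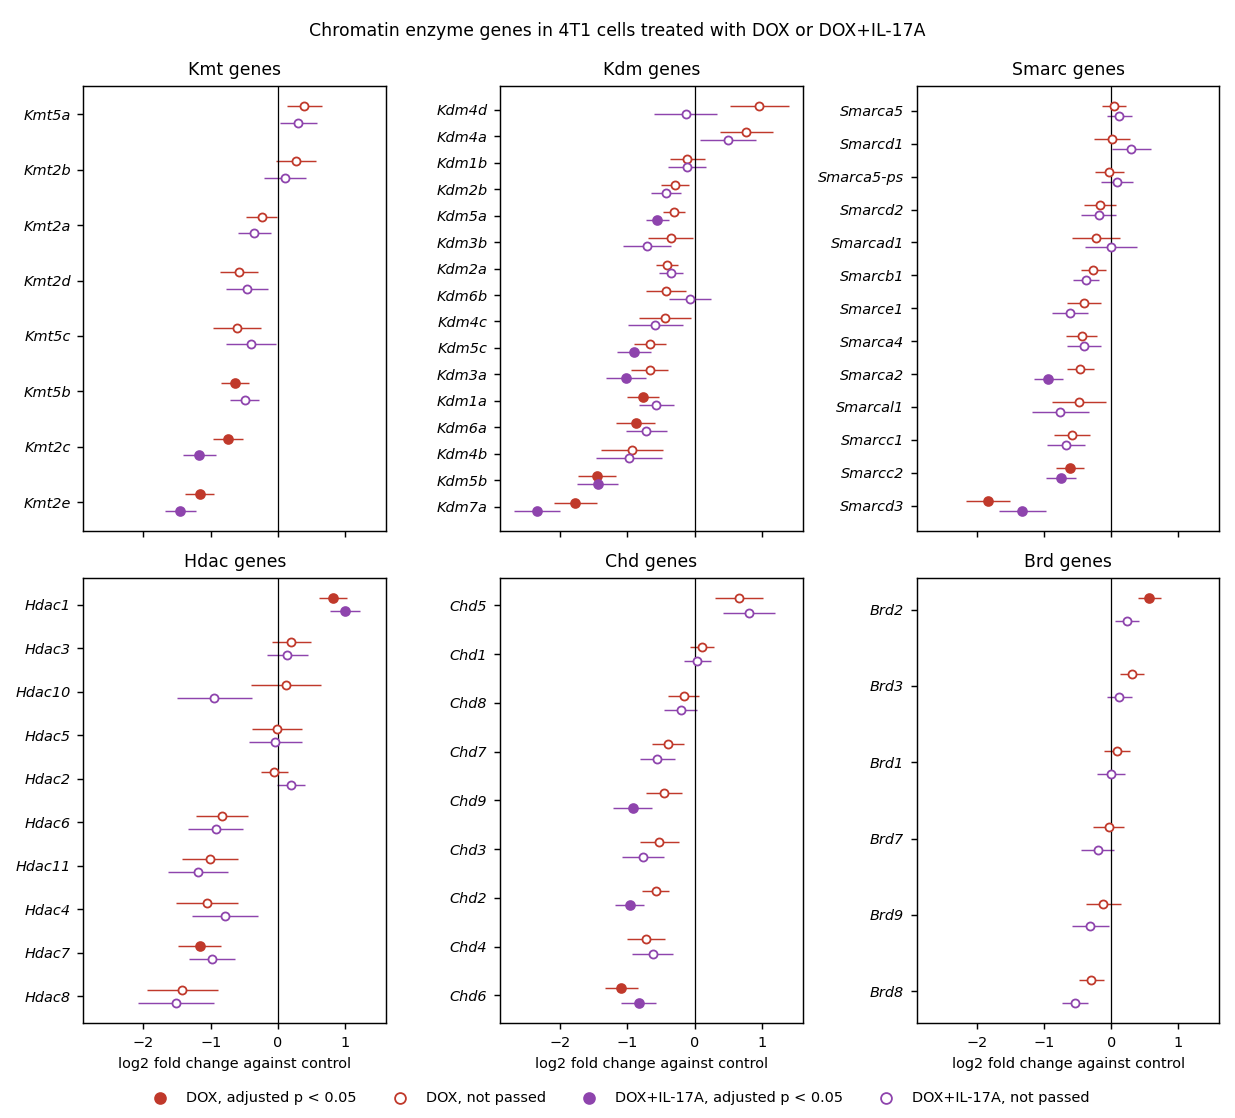
Log2 fold change against control (x axis, log2(value + 1) scale) of 62 of the 63 tested members, 1 panel per family, for DOX (red, n = 4) and DOX+IL-17A (purple, n = 3) against 3 control libraries. Filled points passed an adjusted p under 0.05 and bars are standard errors; most points lie left of 0, with *Kdm7a* lowest at -2.35 in DOX+IL-17A and *Hdac1* at 0.82 and 0.999.

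Genes with Kmt symbols were lower or did not pass. In the Kmt family 3 of 8 genes fell and 0 rose in DOX against control (median -0.60). The background of 9.71% lower and 12.4% higher calls over all genes tested applies to each family in this comparison. *Kmt2e* (chr5:23434441-23504235) encodes a SET and PHD finger protein that binds methylated histone H3 at active promoters. Its level was 406, 677 and 599 in control and 249, 204, 263 and 265 in DOX. Every DOX library lay below every control library, a log2 fold change of -1.16 ± 0.21 (SE; adjusted p = 0.00168). *Kmt2c* (chr5:25271798-25498783), which encodes a methyltransferase of enhancer-bound COMPASS complexes (MLL3), was at 87.5, 105 and 119.99 in control and 62.4, 59.6, 61.4 and 62.2 in DOX, without overlap and with little spread among DOX libraries. Its change was -0.74 ± 0.23 (SE; adjusted p = 0.02797). *Kmt5b*, a histone H4 methyltransferase gene, went from 52.3, 68.3 and 73.8 to 39.8, 34.3, 42.6 and 47.5, again without overlap, by -0.64 ± 0.20 (SE; adjusted p = 0.0348). The *Kmt2c* call was lost when any of control replicates 3 and 5 and DOX replicates 1, 2, 3 and 4 was left out (adjusted p from 0.0535 to 0.111), and that of *Kmt5b* when any of control replicates 3 and 5 and DOX replicates 1, 2 and 3 was left out (adjusted p from 0.0638 to 0.135). The other 5 genes did not pass. They ran from -0.61 for *Kmt5c* to 0.39 for *Kmt5a*, which encodes the monomethyltransferase of histone H4. The 3′ end of *Kmt2e* lies over exons of *Srpk2* on the other strand, and the strand setting of the counting is not given in the sources used here. *Srpk2* itself was at -0.35 (adjusted p = 0.206).

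Demethylase genes held the deepest fall of DOX+IL-17A. In the Kdm family 4 of 16 tested genes fell and 0 rose with DOX (median -0.43). *Kdm7a* (chr6:39136623-39206789), encoding a PHD finger demethylase of repressive histone marks, was at 30.1, 32.5 and 43.7 in control and 8.61, 9.09, 13.002 and 7.96 in DOX. The groups were far apart, with a change of -1.78 ± 0.32 (SE; adjusted p = 0.00146). *Kdm5b* (chr1:134560171-134635285) encodes an eraser of the histone H3 methylation found at active promoters. Levels of 62.4, 97.4 and 122 in control stood against 36.1, 21.8, 39.3 and 36.04 in DOX, a change of -1.45 ± 0.29 (SE; adjusted p = 0.00275) without overlap. *Kdm6a*, which encodes the X-linked demethylase of the Polycomb mark (UTX), was at 23.3, 21.1 and 29.4 and 15.5, 11.1, 10.2 and 15.5, by -0.88 ± 0.29 (SE; adjusted p = 0.0401), a call that was lost when any of control replicates 1 and 5, DOX replicates 2, 3 and 4 and IL-17A replicate 3 was left out (adjusted p from 0.0534 to 0.145). *Kdm1a* (LSD1, the flavin-dependent demethylase of the CoREST complex) was the remaining gene that fell, at -0.77 ± 0.24 (SE; adjusted p = 0.0334), from 176, 87.98 and 122 to 87.2, 57.3, 73.4 and 74.5, and its highest DOX library lay just below its lowest control library. The 12 genes that did not pass ran from -0.93 (*Kdm4b*) to 0.96 (*Kdm4d*). *Kdm4d* was at 1.86, 0.122 and 0.118 in control. Control replicates 3 and 5 lay below their detection limits of 0.183 and 0.354 (3 reads). *Kdm4a* was at 16.9, 78.4 and 76.97 in control, with control replicate 1 far below all 12 other libraries (lowest 49.1). *Kdm8* was listed at 0 in control replicates 1 and 5 and at no more than 4.27 elsewhere.

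Among the 13 Smarc genes 2 (15.4%) fell with DOX, beside 9.71% of all genes tested, and 0 rose (median -0.40). *Smarcd3* (chr5:24590818-24624411) encodes BAF60C, an accessory subunit that BAF complexes use in muscle and heart. It was at 55.996, 24.6 and 41.1 in control and 7.81, 7.12, 13.98 and 12.97 in DOX, with no overlap, a change of -1.84 ± 0.33 (SE; adjusted p = 0.00139), the largest of any member in this comparison. DOX replicate 1, with its high muscle markers, held one of the 2 lowest *Smarcd3* levels. *Chpf2*, whose exons lie opposite the 3′ end of *Smarcd3*, was at 0.78 (adjusted p = 0.0825). The part of muscle RNA or of opposite-strand reads in the *Smarcd3* values was not tested. *Smarcc2*, a scaffold subunit of BAF (BAF170), was at 250.4, 156 and 131 and 116, 116, 111 and 107. Its change of -0.61 ± 0.21 (SE; adjusted p = 0.0446) was close to the threshold and was lost when any of control replicates 1 and 3, DOX replicates 1, 2, 3 and 4, DOX+IL-17A replicates 3 and 5 and IL-17A replicates 2 and 3 was left out (adjusted p from 0.0505 to 0.168). The *Smarcc2* call was lost in 15 of 23 alternatives, among them voom with limma, scaling by size alone and the replicate block. The catalytic subunits did not pass. The ATPase gene *Smarca4* (BRG1) was at -0.44 ± 0.23 (SE; adjusted p = 0.186), *Smarca2* (BRM) at -0.46 ± 0.20 (SE; adjusted p = 0.116), and *Smarca5*, the ISWI ATPase, at 0.04 ± 0.17 (SE; adjusted p = 0.888). *Smarcc1* was at 1061, 548 and 553 in control, where replicate 1 stood far above the others, and at 502, 407, 457 and 468 in DOX (-0.58 ± 0.27 (SE; adjusted p = 0.131)).

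Deacetylase genes moved in both directions with DOX, 1 of 10 tested (10%) each way, beside 9.71% lower and 12.4% higher over all genes. *Hdac1* (chr4:129516104-129542713) encodes the class I deacetylase shared by the NuRD, Sin3 and CoREST complexes. Its level was 81.7, 146 and 107 in control and 194, 207, 188 and 181 in DOX, and all 4 DOX libraries exceeded all 3 control libraries (0.82 ± 0.21 (SE; adjusted p = 0.0107)). *Hdac7*, a class IIa gene, fell from 375, 375 and 219 to 114, 112, 173 and 170.3, by -1.17 ± 0.32 (SE; adjusted p = 0.0183), without overlap. That call was lost when any of control replicate 3 and DOX replicates 1 and 2 was left out (adjusted p from 0.05002 to 0.0527). *Slc48a1*, on the opposite strand at the 3′ end of *Hdac7*, fell as well, at -0.81 (adjusted p = 0.0295), and reads of the genes cannot be told apart without a strand setting. The class I partner *Hdac2* was at -0.05 ± 0.20 (SE; adjusted p = 0.881) and *Hdac3* at 0.20 ± 0.28 (SE; adjusted p = 0.637). Their 95% intervals, -0.47 to 0.37 and -0.40 to 0.81, leave room for changes in either direction. *Hdac4*, *Hdac6*, *Hdac8* and *Hdac11* had estimates of -1.06, -0.83, -1.42 and -1.01 and did not pass (adjusted p from 0.06504 to 0.127). *Hdac8* was low, down to 1 read in DOX replicate 3. *Hdac9* was listed at 0 in all control and IL-17A libraries and reached 1.06 in DOX+IL-17A, too few reads to test. The median over the 10 tested genes was -0.44, the midpoint between *Hdac6* and *Hdac2*, and became -0.051 when *Hdac9* was included with no filter on reads.

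In the Chd family 1 of 9 genes (11.1%) fell with DOX, beside 9.71% of all genes tested, and 0 rose (median -0.45). *Chd6* (chr2:160946978-161109075) encodes a large remodeler of the subgroup of *Chd7*. It was at 62.9, 57.2 and 84.04 in control and 32.7, 26.8, 30.8 and 34.5 in DOX, the highest DOX value lying well under the lowest control value, with a change of -1.09 ± 0.24 (SE; adjusted p = 0.00559). *Chd2*, a remodeler linked to transcribed chromatin, missed the threshold at -0.58 ± 0.20 (SE; adjusted p = 0.0514). Its levels were 151, 146, 152 and 189.9 in DOX and 223, 242 and 249.9 in control. *Chd4*, the ATPase of NuRD, was at 1342, 501 and 549 in control and 480.01, 403, 445 and 419 in DOX (-0.72 ± 0.28 (SE; adjusted p = 0.0776)), and control replicate 1 held the highest level of any library. *Chd5* gave the highest estimate of the family, 0.66, at levels between 1.52 and 6.796 in all 13 libraries, and did not pass (adjusted p = 0.201).

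The Brd family had the median nearest to 0 of the 6 families. With DOX 1 of its 7 genes rose (14.3%, beside 12.4% of all genes tested) and 0 fell. The median of -0.03 became 0.14 when libraries were scaled by size alone. *Brd2*, encoding a BET protein that reads acetylated histones, was at 297, 351 and 271 in control and 434, 501, 454 and 420.4 in DOX. All DOX libraries lay above all control libraries (0.57 ± 0.17 (SE; adjusted p = 0.0272)), a call lost when any of control replicate 5 and DOX replicates 2 and 3 was left out (adjusted p from 0.0629 to 0.112). The BET gene *Brd3* (0.31 ± 0.17 (SE; adjusted p = 0.209)) did not pass, and estimates over the family ran from -0.29 to 0.57.

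**Figure D2:**
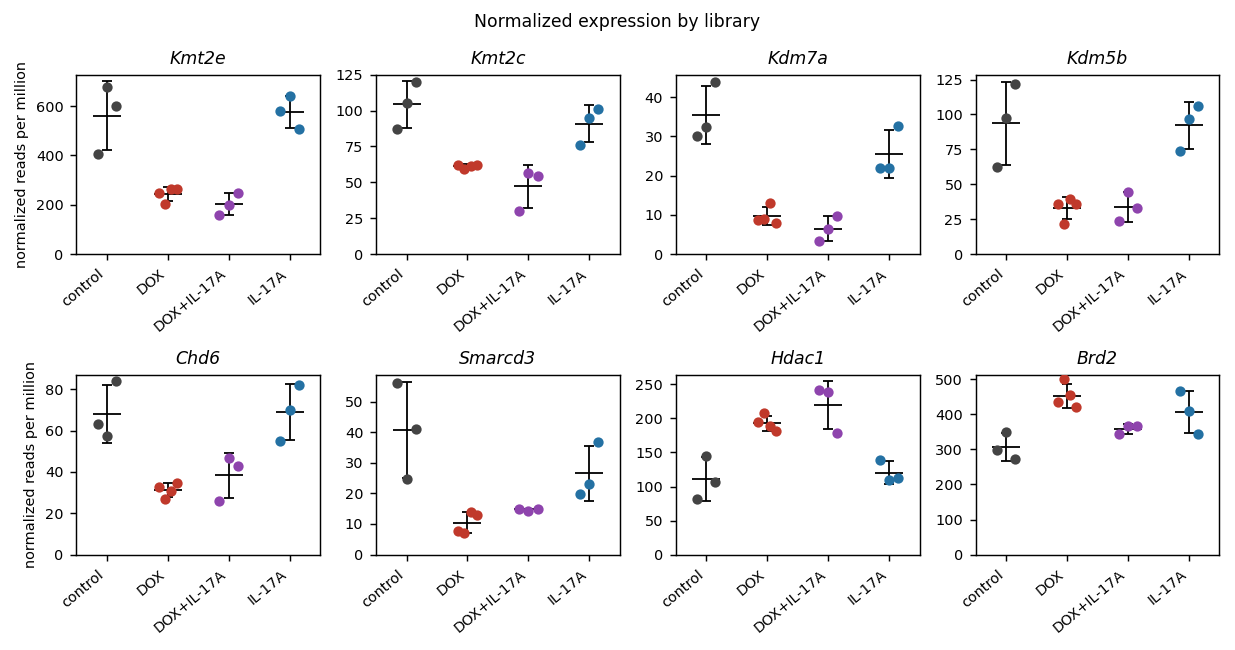
Level (y axis, from 0) of 8 members in every library of the 4 conditions (x axis). Levels are reads scaled by the authors' TMM library size, not numbers of reads. Points are libraries and bars show the mean and SD. *Kmt2e*, *Kmt2c*, *Kdm7a*, *Kdm5b* and *Chd6* are lower in both DOX groups than in control and IL-17A, *Hdac1* is higher in both, and *Brd2* is higher in DOX than in control.

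DOX together with IL-17A gave a similar count. Against the same 3 control libraries, 13 of 63 members fell and 1 rose in DOX+IL-17A, where 17.7% of all genes passed (8.34% lower and 9.37% higher). Past 2-fold as well, 6 members fell and 0 rose, while 12.9% of all genes passed (5.95% lower and 6.95% higher). The median was -0.54 over members and 0.04 over all genes. When libraries were scaled by size only, the median of all genes became 0.20 and 69.1% of all calls were higher rather than 52.9%. Under that scaling 7 members fell and 1 rose. Leaving out control replicate 5 or DOX+IL-17A replicate 2 gave 8 lower and 1 higher in each case, the replicate block gave 7 and 1, and without control replicate 1 the counts were again 13 and 1. A fit of only these 2 groups called 3 members, all lower. This comparison shares its control libraries with the previous one, so their member values are given side by side and the overlap is no independent evidence.

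*Kmt2e* was at 159.9, 199 and 249 in DOX+IL-17A, -1.45 ± 0.23 (SE; adjusted p = 7.97e-04) against control, and *Kmt2c* at 30.3, 56.8 and 54.5, -1.17 ± 0.24 (SE; adjusted p = 0.00461). Neither overlapped control, and the lowest of the 3 libraries was replicate 2 for both genes. *Kmt5b* did not pass here (-0.49 ± 0.22 (SE; adjusted p = 0.128)). Of 16 tested Kdm genes 5 fell (31.2%), beside 8.34% of all genes tested. *Kdm7a* was at 3.48, 6.36 and 9.74, the deepest change of any member at -2.35 ± 0.34 (SE; adjusted p = 5.07e-04). *Kdm5b* was at 23.5, 44.7 and 33.4 (-1.44 ± 0.31 (SE; adjusted p = 0.00548)). *Kdm3a*, encoding a demethylase of repressive histone H3 marks that is known as a hypoxia target, was at 39.7, 35.6 and 21.4 against 42.5, 73.2 and 85.2 in control. It fell by 1.02 on the log2 scale ± 0.30 (SE; adjusted p = 0.0271), lost when any of control replicates 3 and 5 and DOX+IL-17A replicate 5 was left out (adjusted p from 0.0692 to 0.115). The other Kdm genes that fell were *Kdm5c* (-0.90 ± 0.25 (SE; adjusted p = 0.0241)) and *Kdm5a* (-0.55 ± 0.17 (SE; adjusted p = 0.03597)), both named after their values were seen. The *Kdm5c* call was lost when any of 3 single libraries was left out (adjusted p from 0.0507 to 0.0771) and that of *Kdm5a* when any of 9 was (adjusted p from 0.0502 to 0.0908). Neither passed with the replicate block, with libraries scaled by size alone or in a fit of only these groups. With DOX alone *Kdm5c* (-0.66 ± 0.24 (SE; adjusted p = 0.0575)) and *Kdm5a* (-0.30 ± 0.16 (SE; adjusted p = 0.182)) did not pass.

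Among 13 Smarc genes 3 fell in DOX+IL-17A (23.1%), beside 8.34% of all genes tested. *Smarca2*, the BRM ATPase gene, was at 165, 207 and 282 against 378, 409 and 440.3 in control, below all control libraries (-0.94 ± 0.22 (SE; adjusted p = 0.00883)). *Smarcd3* was at 14.9, 14.4 and 14.9 with hardly any spread (-1.33 ± 0.35 (SE; adjusted p = 0.0177)), a call lost when any of control replicate 5 and DOX+IL-17A replicate 3 was left out (adjusted p from 0.0537 to 0.0594). *Smarcc2* was at 94.3, 112 and 102 (-0.74 ± 0.22 (SE; adjusted p = 0.0296)) and no longer passed when any of control replicate 1 and DOX+IL-17A replicates 2, 3 and 5 was left out (adjusted p from 0.0565 to 0.0898). *Hdac1* was the only member that rose, with levels of 242, 239 and 179, all above control (0.999 ± 0.22 (SE; adjusted p = 0.006698)). *Hdac7* missed the threshold (-0.98 ± 0.35 (SE; adjusted p = 0.0601)). Of the 9 Chd genes 3 fell (33.3%, beside the same 8.34%). *Chd2* was at 92.4, 115 and 167 (-0.97 ± 0.22 (SE; adjusted p = 0.00748)), with no overlap with control. *Chd9* was at 33.1, 72.99 and 78.9 against 144, 90.2 and 101 (-0.92 ± 0.29 (SE; adjusted p = 0.0397)), and *Chd6* at 25.97, 46.6 and 42.7 (-0.83 ± 0.26 (SE; adjusted p = 0.0368)). The spread was wide for both, with replicate 2 lowest. The *Chd9* call was lost when any of control replicates 1 and 5, DOX replicates 1, 2, 3 and 4, DOX+IL-17A replicate 2 and IL-17A replicate 3 was left out (adjusted p from 0.0522 to 0.168) and that of *Chd6* when any of control replicate 5, DOX replicates 1, 3 and 4, DOX+IL-17A replicate 2 and IL-17A replicate 3 was left out (adjusted p from 0.0501 to 0.152). In all, the *Chd9* call was lost in 14 of 23 alternatives, among them voom with limma, edgeR and the replicate block, and that of *Chd6* in 9. No Brd gene passed, with *Brd8* at -0.54 ± 0.20 (SE; adjusted p = 0.0716). Family medians were -0.43 for Kmt, -0.58 for Kdm, -0.41 for Smarc, -0.86 for Hdac, -0.62 for Chd and -0.20 for Brd genes.

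**Figure D3:**
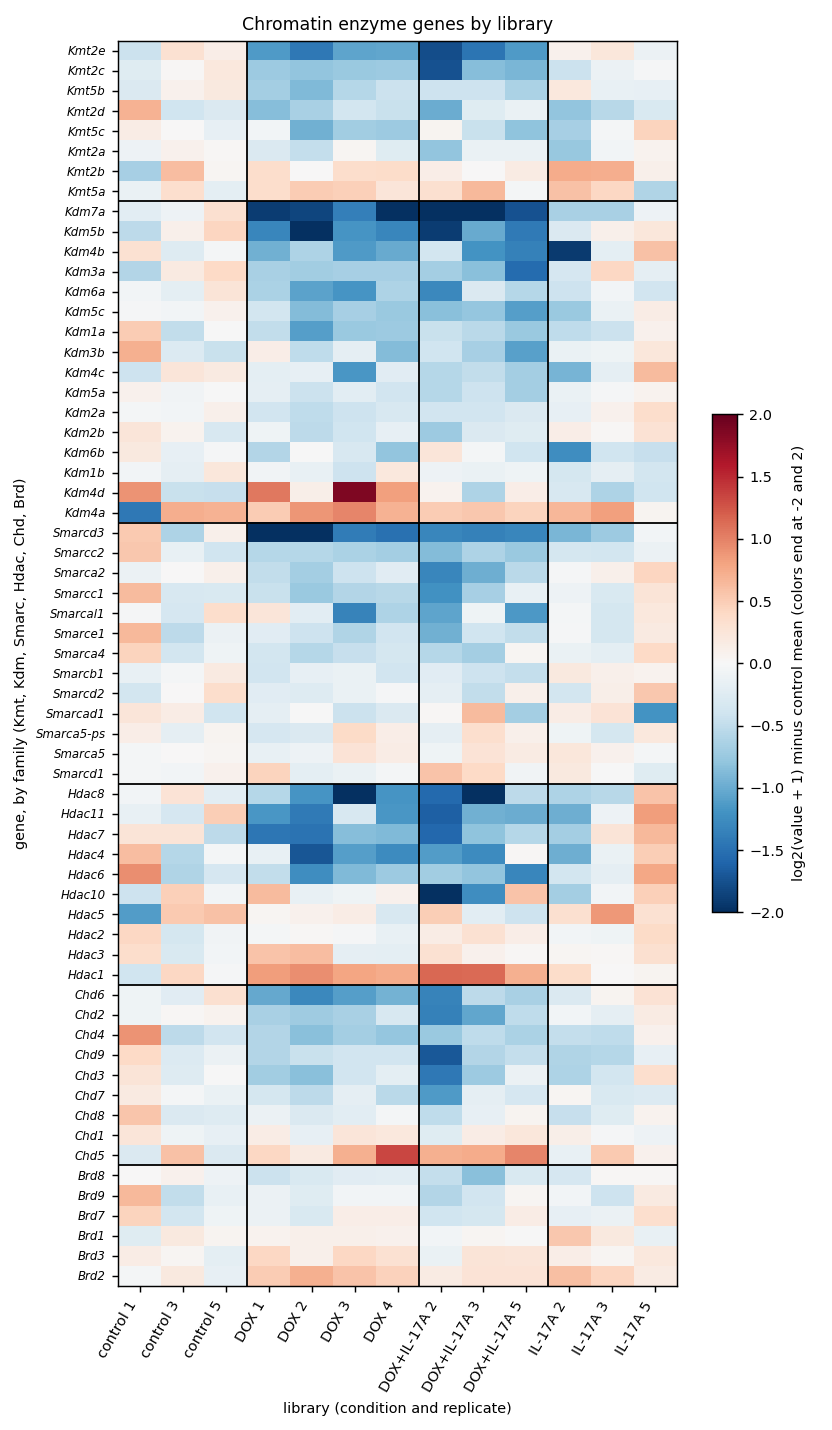
Each cell shows log2(value + 1) of 1 of 62 members (y axis, grouped by family and ordered within it by the mean over DOX and DOX+IL-17A libraries) in a library (x axis) minus the mean of the 3 control libraries, with blue lower and red higher, and colors ending at -2 and 2. The rows of *Kdm7a*, *Kdm5b*, *Kmt2e*, *Chd6* and *Smarcd3* are blue in all 7 libraries with DOX, *Hdac1* is red in them, and control replicate 1 differs from the other controls in rows such as *Chd4* and *Kdm4a*.

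The same contrast within IL-17A-treated cells was measured against separate libraries without DOX, although the DOX+IL-17A libraries are those of the preceding comparison. In DOX+IL-17A against IL-17A, 9 members fell and 1 rose (11 and 1 with the replicate block), with 13.3% of all genes passing (6.75% lower and 6.51% higher), and the median was -0.44 over members and 0.02 over all genes. Past 2-fold as well, 5 members fell and 0 rose, while 9.84% of all genes passed (4.92% lower and 4.92% higher). Scaling by size alone shifted the median of all genes to 0.22 and that of members to -0.23, and the share of higher calls from 49.1% to 72.5%, with 7 members lower and 1 higher. *Kmt2e* was at 579.9, 639.8 and 507 in IL-17A (-1.52 ± 0.23 (SE; adjusted p = 0.00106)) and *Kmt2c* at 76.3, 95.1 and 101 (-0.97 ± 0.24 (SE; adjusted p = 0.0162)). *Kdm7a* was at 21.9, 22.01 and 32.7 (-1.88 ± 0.34 (SE; adjusted p = 0.00303)) and *Kdm5b* at 73.6, 96.7 and 106 (-1.45 ± 0.31 (SE; adjusted p = 0.00743)). None of these 4 genes overlapped between the groups, which adds no evidence, as they were named for passing. *Smarca2* was at 403, 439 and 548 (-1.11 ± 0.22 (SE; adjusted p = 0.00485)) and *Chd2* at 228, 209 and 266 (-0.94 ± 0.22 (SE; adjusted p = 0.0117)), also without overlap. *Chd6* (-0.85 ± 0.26 (SE; adjusted p = 0.0397)) and *Kdm3a* (-0.99 ± 0.30 (SE; adjusted p = 0.0376)) fell too, the former from 54.97, 69.95 and 81.9 and the latter from 50.7, 86.3 and 56.9. *Hdac1* rose from 139.6, 109 and 112, by 0.86 ± 0.22 (SE; adjusted p = 0.0187).

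Several of these calls rested on single libraries. Calls were lost for *Kmt2c* when any of DOX+IL-17A replicate 2 and IL-17A replicates 3 and 5 was left out (adjusted p from 0.0621 to 0.0644), for *Chd2* without DOX+IL-17A replicate 2 (adjusted p = 0.0527) and for *Hdac1* when any of DOX+IL-17A replicates 2 and 3 and IL-17A replicates 3 and 5 was left out (adjusted p from 0.0629 to 0.0798). *Chd6* no longer passed when any of DOX replicates 1, 3 and 4, DOX+IL-17A replicates 2 and 5 and IL-17A replicates 3 and 5 was left out (adjusted p from 0.0504 to 0.161), and *Kdm3a* when any of DOX replicates 1, 2, 3 and 4, DOX+IL-17A replicates 3 and 5 and IL-17A replicates 3 and 5 was left out (adjusted p from 0.0503 to 0.175). The count of members passing was 5 without DOX+IL-17A replicate 2, 5 without IL-17A replicate 3 and 6 without IL-17A replicate 5.

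IL-17A by itself changed no member past the threshold. In IL-17A against control 0 of 63 members passed by limma, and 0.00812% of all genes did. At an unadjusted p under 0.05 there were 2 members, beside 3.08% of all genes, and voom with limma, edgeR and DESeq2 each called 0 at the adjusted threshold. *Brd2* was at 465, 411 and 343 (0.40 ± 0.18 (SE; adjusted p = 0.959)) and *Kdm6b*, which encodes the inducible demethylase of the Polycomb mark (JMJD3), was at 7.66, 14.5 and 13.9 against 22.3, 17.2 and 18.98 in control (-0.70 ± 0.32 (SE; adjusted p = 0.959)). Neither passed. The *Brd2* levels overlapped those of control and the *Kdm6b* levels did not. For genes that moved with DOX the intervals were wide. The 95% interval of the IL-17A effect was -0.42 to 0.55 for *Kmt2e*, -1.19 to 0.26 for *Kdm7a* and -0.33 to 0.61 for *Hdac1*. The median over members was -0.03 and over all genes 0.02.

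Adding IL-17A to DOX also left every member under the threshold. In DOX+IL-17A against DOX 0 of 63 members passed by limma, where 0.455% of all genes did. At an unadjusted p under 0.05 there were 3 members, beside 6.35% of all genes, and 0 at the adjusted threshold by voom with limma, edgeR or DESeq2. *Kdm4d*, a testis-enriched demethylase gene, was at 2.17, 0.657, 4.61 and 1.699 in DOX and 0.613, 0 and 0.687 in DOX+IL-17A (-1.097 ± 0.44 (SE; adjusted p = 0.6498)). Those levels stand for 6 to 33 reads in DOX and 0 to 11 in DOX+IL-17A. *Smarca2* was at 289, 254, 306 and 347 in DOX (-0.48 ± 0.20 (SE; adjusted p = 0.6902)), and its DOX range overlapped that of DOX+IL-17A. The median was -0.10 over members and -0.03 over all genes. Intervals for the genes that moved with DOX were -1.25 to 0.11 for *Kdm7a*, -0.90 to 0.05 for *Kmt2c*, -0.60 to 0.62 for *Kdm5b* and -0.26 to 0.61 for *Hdac1*.

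Whether the effect of IL-17A differed with and without DOX was tested as an interaction. 0 of 63 members passed by limma and 0% of all genes did, with 5 members at an unadjusted p under 0.05 (4.51% of all genes) and 0 at the adjusted threshold by voom with limma, edgeR or DESeq2. The smallest unadjusted p-value among members belonged to *Brd2*, for which the difference was -0.73 ± 0.25 (SE; adjusted p = 0.901), with means of 307 ± 40.5 (SD, n = 3) in control, 407 ± 61.1 (n = 3) in IL-17A, 452 ± 35.3 (n = 4) in DOX and 359 ± 13.9 (n = 3) in DOX+IL-17A. Members as a whole had a median of -0.03, beside -0.06 over all genes. The interaction and the comparison of IL-17A with control share libraries, so their *Brd2* values are not separate evidence.

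Gene length went with the direction of change. The gene span in GENCODE vM21 (mm10) had a median of 47.2 kb over the 63 tested members and 22.4 kb over the 12189 tested genes with a length. Across all genes, cut into 4 groups of about equal size by length, those in the longest group (from 52.8 kb) lay at a median of -0.17 (log2 scale) in DOX against control, with 17.9% lower and 6.69% higher, whereas the medians of the shorter groups were 0.16, 0.25 and 0.16. The longest group held 26 members, with a median of -0.44, 6 lower and 0 higher. The next group held 25 members, with a median of -0.27, 5 lower and 1 higher, beside 7.12% lower and 12.1% higher over all its genes. The 12 shorter members included 1 that rose (*Brd2*) and 0 that fell. In DOX+IL-17A the 26 longest members had a median of -0.72, with 9 lower, beside -0.22 and 15.7% lower over all genes of that group. Spearman's rho between length and log2 fold change was -0.39 over members and -0.14 over all genes with DOX, and -0.41 and -0.14 with DOX+IL-17A. These values describe genes measured in the same libraries, which are not independent replicates. In each length group the median of the members lay below that of all genes in both comparisons. The shortest group held only 3 members and the next 9. The part of length in the fall of the members was not tested.

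**Figure D4:**
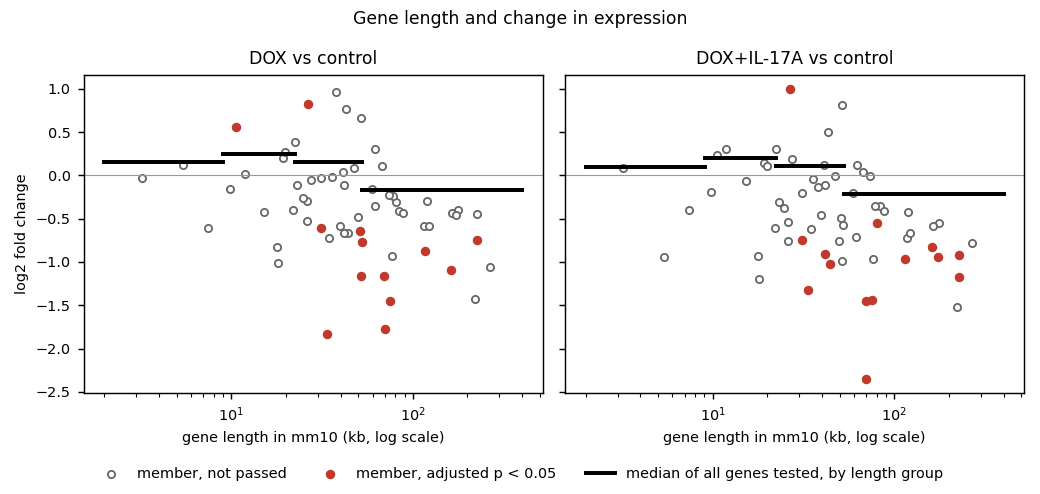
Log2 fold change (y axis) against gene length (x axis, kb, log scale) of 62 of the 63 tested members in DOX (left) and DOX+IL-17A (right) against control, red where the adjusted p was under 0.05. Black lines are medians over all genes tested in each of the 4 length groups (the shortest and longest drawn shortened). Most red points lie among genes above 22.4 kb. So do most members, with 25 of the 63 tested in the second longest group and 26 in the longest.

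Partner genes of these enzymes were called in both directions with DOX. The lists hold 194 tested genes in 11 groups, and the background of 9.71% lower and 12.4% higher calls with DOX and a median of 0.09 applies to each. Among 17 BAF and PBAF partner subunits 4 fell and 0 rose (median -0.15), a median that became 0.02 when libraries were scaled by size alone. *Bcl11a*, encoding a zinc finger subunit of BAF, showed the largest fall, from 4.34 ± 0.86 (SD, n = 3) to 1.03 ± 0.22 (n = 4) (-1.39 ± 0.40 (SE; adjusted p = 0.0217)). Among 26 ISWI, INO80, SRCAP and other remodeler genes 5 fell and 2 rose (median -0.32). *Baz2b*, a bromodomain partner of ISWI ATPases, went from 216 ± 39.9 (SD, n = 3) to 94.2 ± 2.32 (n = 4), by -1.18 ± 0.19 (SE; adjusted p = 6.79e-04). *Daxx*, the histone H3.3 chaperone gene, rose from 53.1 ± 13.6 to 158 ± 37.3 (1.55 ± 0.26 (SE; adjusted p = 9.56e-04)). Among 28 HDAC corepressor partners 6 fell and 2 rose (median -0.34), with *Tbl1x*, an NCoR complex subunit, at -1.32 ± 0.22 (SE; adjusted p = 0.00103) and *Brms1*, a Sin3 subunit, at 0.96 ± 0.30 (SE; adjusted p = 0.03303). None of the 14 COMPASS core and KMT2 partners passed (median 0.05).

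Other histone-modifying enzymes were mixed. Of 26 Polycomb genes 3 fell and 0 rose (median -0.04, or 0.13 under scaling by size alone), and *Jarid2*, a JmjC-domain cofactor of PRC2, went from 27.7 ± 8.67 to 8.304 ± 1.43 (-1.596 ± 0.40 (SE; adjusted p = 0.0117)). Of 19 other lysine methyltransferase genes 6 fell and 2 rose (median -0.48). *Smyd3* was at -1.25 ± 0.28 (SE; adjusted p = 0.00549), and *Dot1l*, the histone H3 methyltransferase of elongating genes, at 1.0003 ± 0.32 (SE; adjusted p = 0.0368). Of 23 acetyltransferase genes 3 fell and 0 rose (median -0.14, or 0.03 under scaling by size alone), with *Kat6b* at -1.21 ± 0.35 (SE; adjusted p = 0.0222). No sirtuin of 7 passed (median -0.23). Of 11 other JmjC genes 1 fell (*Jmjd7*, -1.42 ± 0.37 (SE; adjusted p = 0.0139)) and 1 rose (*Riox1*, 0.86 ± 0.23 (SE; adjusted p = 0.0145)), with a median of 0.10. Of 7 arginine methyltransferase genes *Prmt2* fell (-1.07 ± 0.30 (SE; adjusted p = 0.0204)) and *Prmt6* rose (1.095 ± 0.36 (SE; adjusted p = 0.0381)), with a median of -0.0039. Of 16 histone chaperone genes 2 fell and 2 rose (median 0.03). *Asf1b*, which delivers histones at replication forks, rose from 47.01 ± 18.5 to 130.2 ± 9.51 (1.52 ± 0.25 (SE; adjusted p = 8.25e-04)), and *Npm1*, the nucleolar chaperone gene, fell from 7300 ± 1105 to 3334 ± 275 (-1.12 ± 0.23 (SE; adjusted p = 0.003696)).

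Over the 6 comparisons 20 of 63 members passed at least once, beside 28.1% of all genes tested, and 43 never did. Among the 43 were the ATPase genes *Smarca4*, *Smarca5*, *Chd4* and *Chd1*, the class I deacetylase genes *Hdac2*, *Hdac3* and *Hdac8*, and the methyltransferase genes *Kmt2a*, *Kmt2b* and *Kmt2d*. *Kmt2e*, *Kdm7a* and *Kdm5b* passed in all 3 comparisons of DOX under all 23 alternatives run, and *Smarcd3* and *Chd6* did so in DOX against control.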

How the data were processed

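RNA of 13 cultures was made into QuantSeq FWD 3′ libraries and sequenced as single 75 base reads by the authors. Per the study's methods and processing notes, reads were checked with FastQC, trimmed with Trimmomatic, aligned to mm10 with STAR (version 2.6) and counted with featureCounts (Rsubread 1.30.5). The strand setting of the counting is not given in the sources used here. The deposited values are a signal, reads per gene divided by the authors' TMM-scaled library size, and were whole multiples of the value of 1 read in 100% of cases (tolerance 0.1 reads), so reads were recovered. Of 13223 entries 1 identical repeat was dropped.

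Genes kept by filterByExpr (edgeR 4.0.16) were tested with limma 3.58.1 (trend) on log2(value + 1) in R 4.3.3, with condition as the only factor, 13 libraries and 9 residual degrees of freedom. A member passed at a Benjamini-Hochberg adjusted p under 0.05 over 12319 genes, and intervals are 95% moderated intervals. Fold changes on this scale understate those of low genes. The script was tested on simulated data. Same-numbered libraries of DOX+IL-17A and IL-17A deviated together in all 3 pairs (correlation 0.17 to 0.35, taken from the data since no source says what the number marks), so the blocked count stands beside that comparison. Alternatives used voom, edgeR quasi-likelihood and DESeq2 1.42.0 on recovered reads, other scaling, filters, pseudocount, blocks and left-out libraries.

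Named members were, in each family, up to 3 largest rises and falls among those passing against control, all passing in the other comparisons or else the 2 of smallest p, and in each partner list the passing genes with the largest rise and fall. Other members named for context were chosen after their values were seen. Where groups are said not to overlap, this adds no evidence of a change, whether or not the gene passed. The share of all genes without overlap is not given here. The members and lists were chosen with earlier results of these data known. Promoters came from RefSeq (GRCm38.p6), with 45 tested members matched, and in 42 of them a stretch after the start was found in a GENCODE transcript of the same gene and orientation. Counts and medians cover all 63 tested members, but 1 of them is not reported here by itself, and the figures show the other 62.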

Additional observations from a re-analysis of the deposited data

Results flagged for a closer look

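Within the 4 DOX libraries, each of the 63 tested members was examined for a single library far from the other 3 (Dixon's test at the 95% level). Chance alone marks about 1 in 20 groups, and 4 members were marked. *Chd2* was at 190 in DOX replicate 4 and between 146 and 152 in the others. *Hdac11*, whose 3′ end lies over exons of *Gm44002* on the other strand, was at 11.2 in DOX replicate 3 and between 4.71 and 5.81 in the others. *Kdm4c* was at 2.52 in DOX replicate 3, with 5.72 to 6.02 in the others. *Kmt2b* was at 18.6 in DOX replicate 2, with 23.8 to 24.1 in the others. None of these genes passed in DOX against control, and *Chd2* passed in both comparisons of DOX+IL-17A with cells that had no DOX. Groups of 3 libraries were not examined.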

How the results depend on the processing

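Of the alternatives run, none reversed a named member, and 0 members passed in IL-17A against control, in DOX+IL-17A against DOX and in the interaction under every one of them. In DOX against control, scaling by size alone and the replicate block each lost the calls of *Kmt2c*, *Kmt5b*, *Kdm6a* and *Smarcc2*. In DOX+IL-17A against control, scaling by size alone lost those of *Chd6*, *Chd9*, *Kdm3a* and *Smarcc2*. The count of members passing moved by over 1.5 times as follows. With the fold demand added it was 6 (DOX against control), 6 (DOX+IL-17A against control) and 5 (DOX+IL-17A against IL-17A). With libraries scaled by size only it was 8 in DOX+IL-17A against control, and with only the groups compared in the fit it was 3 there. With the replicate block it was 7 in DOX against control and 8 in DOX+IL-17A against control. Same-numbered libraries correlated at 0.15 on average (lowest -0.18, over 0.1 in 8 of 13 pairs, and 7 of 12 libraries were closest to their own number), and pairs of different number at -0.037. All 3 same-numbered pairs of DOX+IL-17A with IL-17A were over 0.1 (0.17 to 0.35), and there the block gave 12 members and kept all 10 calls. The other comparisons have 2 such pairs each, and their numbers are not shown to pair libraries. Without control replicate 1 and DOX replicate 1 together, 8 members passed in DOX against control.

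Leaving out 1 library gave 6 to 14 members in DOX against control (6 without DOX replicate 2, 7 without DOX replicate 3, 8 without control replicate 5), 9 to 16 in DOX+IL-17A against control (9 without control replicate 5 or DOX+IL-17A replicate 2) and 5 to 14 in DOX+IL-17A against IL-17A. Medians of log2 fold change under scaling by size only were -0.23 over members, -0.43 over Kmt, -0.23 over Smarc, 0.019 over BAF partners, 0.13 over Polycomb and 0.030 over acetyltransferase genes in DOX against control, -0.37, -0.27 and -0.23 over members, Kmt and Smarc genes in DOX+IL-17A against control, and -0.23 over members in DOX+IL-17A against IL-17A. With no filter the Hdac median in DOX against control was -0.051, as *Hdac9* joined. With a mean of at least 10 reads, or only the groups compared, that of sirtuins was 0.12, with 6 genes tested. The replicate block gave -0.35, -0.24 and -0.45 over members, Kmt and Hdac genes in DOX+IL-17A against control and -0.18 over members in the interaction. Without control replicate 1 and DOX replicate 1 together, medians were -0.28 over BAF partners, 0.37 over arginine methyltransferases and 0.26 over chaperones (DOX), and -0.37 and -0.54 over members and Hdac genes (DOX+IL-17A). Leaving out 1 library gave medians from -0.62 to -0.42 for Kmt, -0.38 to -0.039 for BAF partners, -0.23 to 0.20 for sirtuins, -0.25 to 0.16 for other JmjC, -0.19 to 0.32 for arginine methyltransferase and -0.047 to 0.29 for chaperone genes in DOX against control, -0.56 to -0.37 for members, -0.59 to -0.35 for Smarc and -0.97 to -0.48 for Hdac genes in DOX+IL-17A against control, and -0.24 to 0.20 for Hdac genes in IL-17A against control. The cause of these shifts was not tested. In DOX against control, standard errors were above 0.4 on the log2 scale for *Kdm4d*, *Kdm4b*, *Hdac4*, *Hdac8*, *Hdac10* and *Hdac11*, and at this depth *Kdm4d* was at 0 reads in a DOX+IL-17A library.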
